A study of Homo sapiens with 12 samples.

Results

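The genes described here are 7 metallothionein genes, MT1A, MT1E, MT1F, MT1G, MT1M, MT1X and MT2A, together with MTF1, which encodes a transcription factor of these genes. They were chosen by name, with earlier results of these data known, and are 8 of the 58735 genes in the table of counts. Metallothioneins are small, cysteine-rich proteins that bind zinc and copper, buffer free zinc in the cell and can react with oxidants. MTF1 senses zinc through its zinc fingers, moves to the nucleus and binds metal response elements, short DNA motifs that lie before many metallothionein genes. Zinc, cadmium and oxidants are known to raise the transcription of MT2A and of several MT1 genes, and metallothioneins are expressed in the epithelium of the human lens.

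The libraries were made from RNA of HLE-B3, an immortalised line of human lens epithelium. The cells were wild type (WT) or Atg7KO, in which ATG7, a gene needed to form autophagosomes, had been targeted. Each genotype was collected untreated at 0 h and after 12 h in 200 μM H2O2, which gives 4 groups of 3 libraries that the labels call biological replicates. Knockout cells came from clones that the study's methods say were chosen by protein blots of the targeted gene product, and those blots were not analysed here. Also, which clone or clones were sequenced is not given in the sources used here, so genotype and clone cannot be told apart. Untreated cells were collected at 0 h, so H2O2 and 12 h of further culture cannot be told apart. Library totals ran from 15602183 to 17659496 reads on genes. The group medians were 17290405 reads in untreated WT, 17044512 in treated WT, 17149028 in untreated Atg7KO and 17290962 in treated Atg7KO. Depth was therefore close to equal between the groups. The p-values set each difference against the spread between these replicates, which the tests pool in part over genes. In bulk RNA, fewer cells that express a gene and less RNA per cell cannot be told apart.

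ATG7 (ENSG00000197548, chromosome 3) was at 2.55 ± 0.313 FPKM (fragments per kilobase of gene, scaled to library size; SD, n = 3) in untreated WT and at 3.55 ± 0.205 in untreated Atg7KO. With H2O2 it was at 1.96 ± 0.0411 FPKM in WT and 2.19 ± 0.137 in Atg7KO. By the quasi-likelihood test of edgeR, adjusted over all genes tested by Benjamini and Hochberg's method, the log2 difference between Atg7KO and WT was 0.47 (SE 0.12, adjusted p = 0.0348) untreated and 0.15 (adjusted p = 0.135) with H2O2. Leaving out untreated Atg7KO replicate 1, which is described below, gave a mean of 3.43 FPKM and a log2 difference of 0.43 (SE 0.09, adjusted p = 6.02e-06), which passed as higher. ATG7 mRNA was thus not reduced in the libraries labelled Atg7KO. Counts per gene do not show whether an edit is present, and the groups are called by their labels here.

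Of 9 lens epithelial markers, 3 were above 1 FPKM on average. These were CDH2, an adhesion protein, at 136 FPKM, GJA1, a gap junction protein, at 36, and SIX3, an eye transcription factor, at 2.49. The defining lens gene PAX6 was at 1.27 FPKM in untreated WT, 1.02 in untreated Atg7KO, 0.776 in treated WT and 0.56 in treated Atg7KO. FOXE3 (0.0198 FPKM) and CRYAA (0.00846), also lens genes, and the epithelial adhesion gene CDH1 (0.0227) were near 0. The list summed to between 145 and 211 FPKM in each library. Lens fibre markers had 1 of 7 genes above 1 FPKM, CRYGS at 1.48, with LIM2 at 0 in all 12 libraries. Keratinocyte markers (0 of 3 above 1 FPKM) and blood cell markers (0 of 4, HBB at 0) summed to at most 0.243 and 0.138 FPKM in any library. Fibroblast markers had 4 of 5 genes above 1 FPKM, led by the collagen gene COL1A1 at 394, and summed to between 258 and 682 FPKM. With H2O2, 4 of 4 tested fibroblast markers fell in WT and 3 of 4 fell in Atg7KO, with median log2 differences of -1.08 and -0.76. With untreated Atg7KO replicate 1 left out, 4 of 4 fell in Atg7KO, with a median of -0.82. Of all genes tested, 30.1% fell in WT, 12.4% in Atg7KO and 28.6% in Atg7KO without that replicate. The shares that rose were 30.9%, 13.6% and 29.8%. Of 5 tested lens epithelial markers, 2 rose and 2 fell in WT, and 2 rose and 1 fell in Atg7KO, or 2 and 2 without that replicate. The lens gene CRYAB, 1 of those that rose in each genotype, passed the filter on low counts only through the treated group, where it is high. Between treated genotypes, 1 of 4 fibroblast markers was higher and 2 lower in Atg7KO, against 27.7% and 27.9% of all genes. For lens epithelial markers it was 2 and 2 of 5. Untreated, 0 of 4 passed in each list by edgeR, against 4.42% and 3.28% of all genes. Without untreated Atg7KO replicate 1, where 18.2% and 17.9% of all genes passed, 1 fibroblast marker was higher and 3 lower. Among lens epithelial markers 1 was higher and 2 lower in that fit. CRYAB was 1 of the lower ones, and in neither group did all libraries reach the count of the filter for it. The part of these markers in the metallothionein values was not tested.

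The untreated Atg7KO replicate 1 stood apart from its group. Its mean correlation with its 2 replicates over log2 expression was 0.976, against 0.986 for each of those replicates and 0.9956 to 0.9965 for the 9 libraries of the other groups. Against its group, genes under 1500 bases exceeded genes over 6000 bases by 0.325 log2 units in this library. The same measure was -0.174 in both of its replicates and between -0.021 and 0.016 in the other 9 libraries. The groups differed by length as well. Against the mean of all 12 libraries, short genes minus long genes came to between -0.173 and -0.142 in untreated WT and between 0.156 and 0.181 in treated WT. It was 0.385, -0.095 and -0.098 in untreated Atg7KO and between -0.126 and -0.091 in treated Atg7KO. The WT groups thus differ in length balance, and so do the treated genotypes. The mitochondrial share of reads ran from 4.49% to 4.97% in untreated WT and from 3.54% to 3.9% in treated WT. In Atg7KO it ran from 4.29% to 4.42% untreated and from 3.16% to 3.27% with H2O2. The part of this share in the metallothionein values was not tested.

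Gene lengths are 1299 bases for MT2A, 1052 for MT1E and 750 for MT1G, which are short by this measure, and 8024 for MTF1, which is long. MT1X, at 1773 bases, and MT1F, at 1889, lie just above the limit for short genes. With a correction for gene length, the log2 differences for H2O2 in WT were 0.55 for MT2A (adjusted p = 1.59e-09), 1.75 for MT1E (3.68e-09), 1.65 for MT1X (7.14e-09) and 0.78 for MTF1 (9.6e-15). Between the treated genotypes they were 0.42 for MT2A (1.31e-11) and -0.39 for MTF1 (1.06e-06). Apart from this correction, the part of the length balance in the metallothionein values was not tested. Where a call of a member or a printed count of a list rests on untreated Atg7KO, the result without replicate 1 is given as well.

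MT2A (ENSG00000125148) lies at chr16:56608199-56609497 on the plus strand of GRCh38. MT1E (ENSG00000169715, chr16:56625475-56627112, plus strand) lies 17.3 kb from it by the lower coordinates, MT1G (ENSG00000125144, chr16:56666731-56668065, minus strand) 58.5 kb and MT1X (ENSG00000187193, chr16:56682424-56684196, plus strand) 74.2 kb. MT1M (ENSG00000205364, chr16:56632233-56633986), MT1A (ENSG00000205362, chr16:56638666-56640087) and MT1F (ENSG00000198417, chr16:56657694-56660698) lie between them on the plus strand. MTF1 (ENSG00000188786) is elsewhere, at chr1:37809567-37859620 on the minus strand. All of the 8 members had the same coordinates in GENCODE release 29.

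The DNA just before the start is shown because MTF1 is known to bind there. RefSeq promoter windows (GRCh38.p14), of 250 bases before each start, matched 3 of the 8 members (MT2A, MT1X and MTF1) and 5 of the 21 metallothionein genes and pseudogenes in the table. The core of the metal response element was searched as TGCACNC or TGCGCNC on both strands, and 24.8% of 35116 promoter windows of this length held at least 1. MT2A had 7 cores, a number reached by 0.0313% of the windows, and MT1X had 4, reached by 0.37%. MT1H, a family member with 2 reads in all, had 8 (0.0171%), and MT1B and MT4, each with 0 reads, had 3 each (1.58%). SLC30A1, which encodes the zinc exporter of the plasma membrane and is a known MTF1 target, had 1. MTF1 had 0. Capitals mark the cores in these plus-strand windows of MT1X (chr16:56682220-56682423, ending at the first exon of the GENCODE annotation) and MT1H (chr16:56669564-56669813) and in the minus-strand window of SLC30A1 (chr1:211579162-211579411), all upstream of the annotated first exon and each written along the strand of its gene.
MT1X: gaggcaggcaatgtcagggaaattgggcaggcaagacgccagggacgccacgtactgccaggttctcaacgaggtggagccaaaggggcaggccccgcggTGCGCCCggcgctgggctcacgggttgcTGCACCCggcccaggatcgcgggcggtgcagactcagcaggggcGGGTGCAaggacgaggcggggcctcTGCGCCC
MT1H: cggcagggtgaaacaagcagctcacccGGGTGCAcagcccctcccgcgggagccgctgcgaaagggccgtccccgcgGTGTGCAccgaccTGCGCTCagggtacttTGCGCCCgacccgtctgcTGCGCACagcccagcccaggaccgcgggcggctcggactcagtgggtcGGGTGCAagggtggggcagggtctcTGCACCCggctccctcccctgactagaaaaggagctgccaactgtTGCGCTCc
SLC30A1: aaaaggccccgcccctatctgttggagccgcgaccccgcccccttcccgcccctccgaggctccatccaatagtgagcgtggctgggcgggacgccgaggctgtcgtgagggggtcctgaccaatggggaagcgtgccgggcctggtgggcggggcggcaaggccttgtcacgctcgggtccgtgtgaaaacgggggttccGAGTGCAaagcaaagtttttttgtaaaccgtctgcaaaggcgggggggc
The MT2A window is not shown since all 250 of its bases lie within an exon of an annotated MT2A transcript. A core written in reverse, such as GGGTGCA, is a match on the opposite strand. A match is a description of letters and not a site that was shown to be bound.

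**Figure D1:**
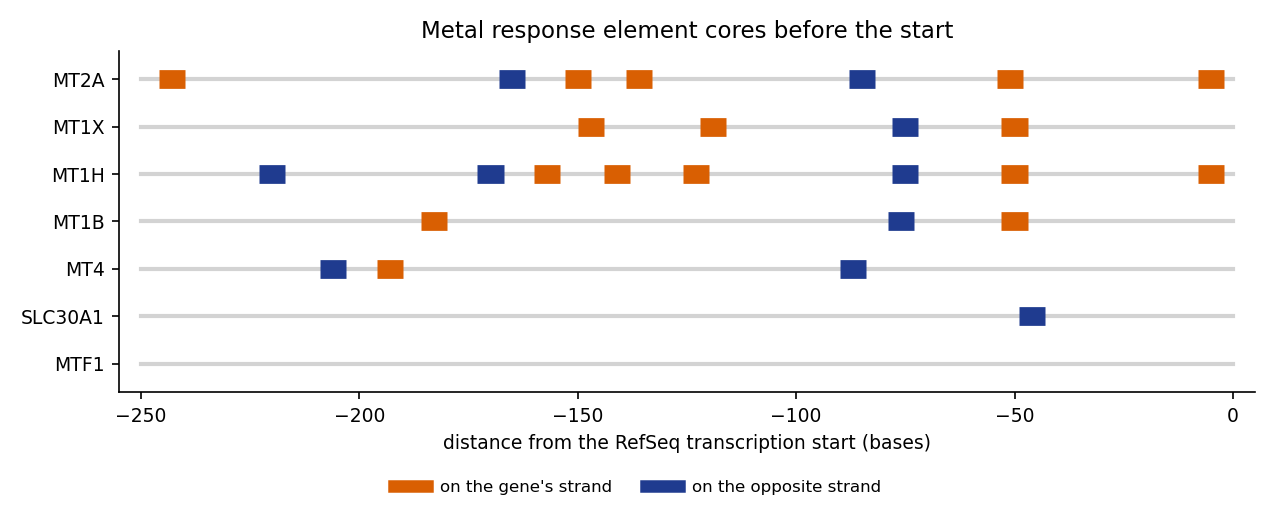
Each grey line is the 250 bases before the RefSeq start of a gene, in bases from the start, and each box is a core of the metal response element (TGCACNC or TGCGCNC) on the strand of the gene or on the opposite strand. MT2A holds 7 cores, MT1X 4, MT1H 8, MT1B 3, MT4 3, SLC30A1 1 and MTF1 0, and MT1X, MT1H and MT1B each have a core that ends 47 bases before the start.

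The spacing of the cores was alike in several of these windows. Cores on the gene's strand covered bases 53 to 47 before the start in MT1X, MT1H and MT1B, and bases 54 to 48 in MT2A. A core on the opposite strand followed farther out, at bases 78 to 72 in MT1X and MT1H, 79 to 73 in MT1B and 88 to 82 in MT2A. Both MT2A and MT1H also had a core at bases 8 to 2. MT4 had none of these positions, with cores at bases 90 to 84 and 209 to 203 on the opposite strand and 196 to 190 on its own. The antioxidant response element, searched as TGACNNNGC on both strands and found in 10.9% of windows, was present once each in MT2A, MT1X, MT1B and SLC30A1. The TATA box (TATAAA on the gene's strand, in 6.8% of windows) was present in MT2A, MT1X, MT1B and MT4. The heat shock element (GAANNTTC or TTCNNGAA, in 11.6% of windows) was not found in the windows of MT2A, MT1X, MT1H, MT1B, MT4, SLC30A1 or MTF1. Matches of different motifs can share bases and were counted separately. Of 11 other genes known as MTF1 targets, 10 had a window, and 6 of these 10 had a core in at least 1 of their windows.

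MT2A held almost all reads of the family. The 21 metallothionein genes and pseudogenes together took between 131 and 161 RPM (reads scaled to the library's total, the read-based counterpart of FPKM without gene length) in untreated WT and between 240 and 258 in treated WT. In untreated Atg7KO they took 305, 175 and 188 RPM in replicates 1 to 3, and in treated Atg7KO between 288 and 302. MT2A accounted for 97.4% to 98.1% of these reads in untreated WT and for 94.2% to 95.6% with H2O2. In Atg7KO its share was 97.8% to 97.9% untreated and 96.0% to 96.3% with H2O2. The share of MT2A was thus lower in every treated library than in any untreated library of the same genotype, and these are shares of reads, not corrected for length. The share of MT1E ran from 0.639% to 1.37% in untreated WT and from 2% to 2.79% in treated WT. In Atg7KO it ran from 0.635% to 1.12% untreated and from 1.75% to 2.18% with H2O2. Per length, MT2A was also far above the rest, at 109 ± 11.3 FPKM in untreated WT, followed by MT1E at 1.43 ± 0.436 and MT1X at 0.883 ± 0.134. The ranges of MT1E and MT1X in that group overlapped.

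The other members were at or near 0. MT1F had 8 reads over all 12 libraries, 4 in each WT group and 0 in both Atg7KO groups. MT1A had 2 reads in 2 libraries and MT1M 1 read in 1 library. At this depth a count of 0 allows up to 0.17 to 0.192 RPM, depending on the library, and this bound covers counting error only. Differences of MT1F, MT1A and MT1M between groups were therefore not detectable. None of the 14 other metallothionein genes and pseudogenes passed the filter on low counts. MT3, MT4 and MT1B were at 0 in all 12 libraries, and the processed pseudogene MT2P1 had between 1 and 6 reads in each library.

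Reads of these genes can be shared because the members are close in sequence. How reads that map to several places were counted, and the read length, are not given in the sources used here, so the split of reads among members is uncertain. Of the 50-base stretches of annotated MT2A transcripts, 3.02% also occurred in a transcript of another gene, and 0% of the 100-base stretches did. The 50-base shares were 7.1% for MT1E, 16.5% for MT1G and 18.3% for MT1X. For MT1X 11.3% of 100-base stretches were shared as well, all with the overlapping transcript AC026461.1, which had 0 reads in all 12 libraries. The 100-base shares of MT1E and MT1G were 0%.

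**Figure D2:**
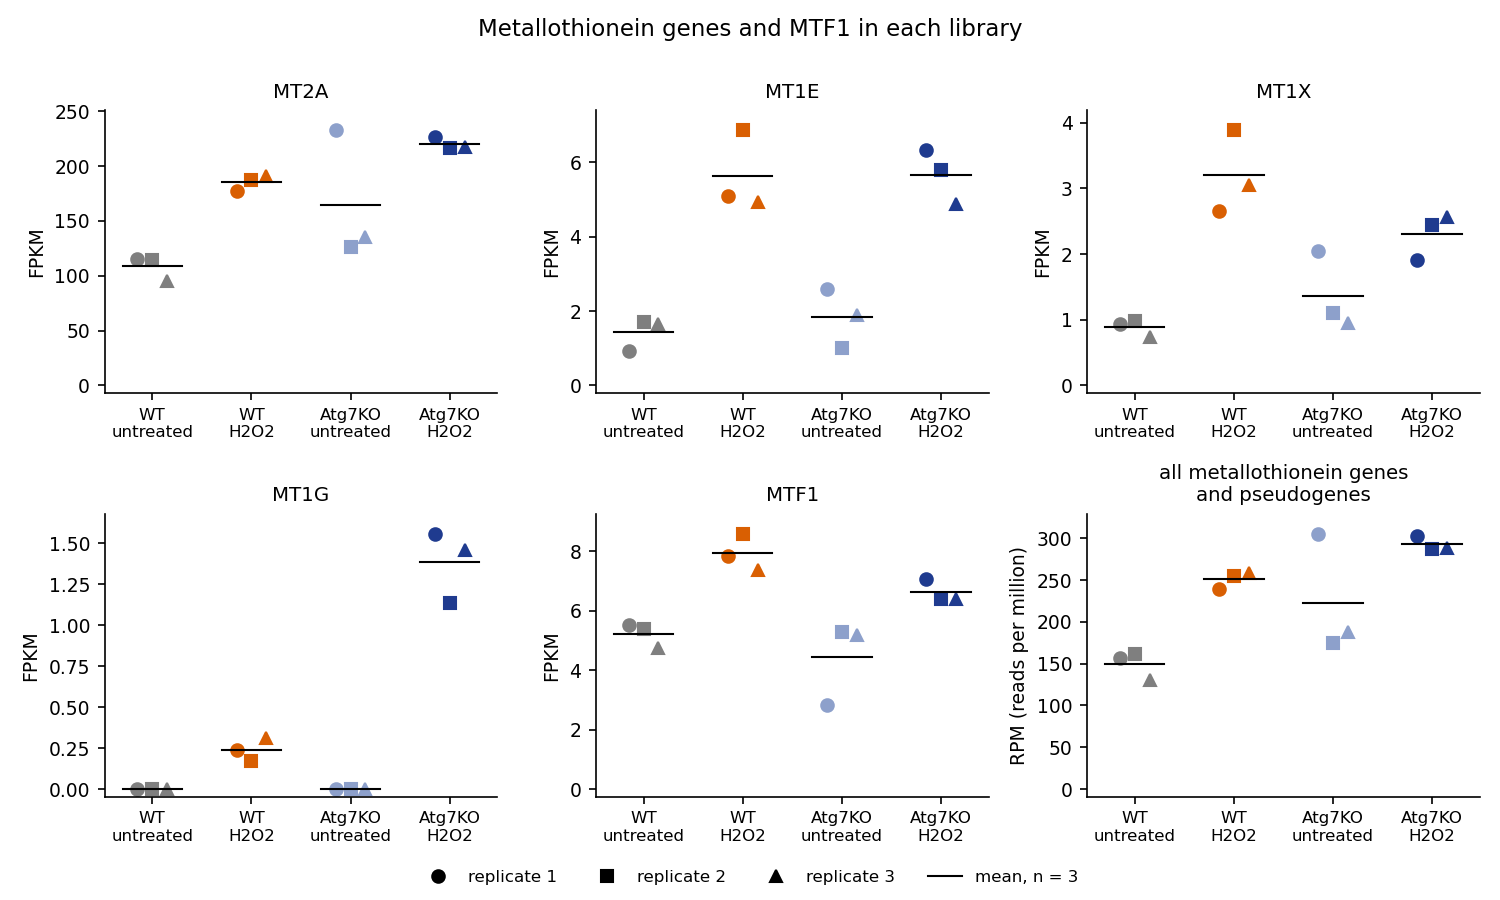
Points are the 3 libraries of each group (FPKM for single genes, RPM for the family), and lines are group means (n = 3). Symbols give the replicate number, by which the libraries were not paired in the reported tests. MT2A lies at 95.5 to 115 FPKM in untreated WT and at 177 to 191 with H2O2, and the untreated Atg7KO replicate 1 lies at 232, above its replicates at 127 and 135.

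The comparison of treated with untreated WT cells asks how the family responds to the oxidant in wild-type cells. MT2A, MT1E and MT1X rose with H2O2, and so did MTF1. MT1E and MT1X rose by 3.88-fold and 3.58-fold from low levels, and MT2A by 1.7-fold from a high level. MTF1 rose by 1.52-fold. MT1G went from 0 reads in each untreated library to 2 to 4 reads in each treated library.

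MT2A, the main metallothionein of most human cells, was at 115, 115 and 95.5 FPKM in the 3 untreated WT libraries and at 177, 187 and 191 in the treated ones. All treated libraries lay above all untreated ones, and replicate 3 was the lowest of the untreated. The log2 difference was 0.76 (SE 0.06, adjusted p = 1.65e-12). In this fit the spread pooled over genes had a median of 41.7 prior degrees of freedom. MT1E, an MT1 isoform, was at 0.927, 1.71 and 1.66 FPKM untreated, from 17 to 33 reads, and at 5.10, 6.85 and 4.92 with H2O2, from 89 to 111 reads. The groups did not overlap, and untreated replicate 1 was the lowest. Its log2 difference was 1.96 (SE 0.23, adjusted p = 1.55e-10).

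MT1X, another MT1 isoform, was at 0.939, 0.981 and 0.730 FPKM untreated, from 23 to 32 reads, and at 2.66, 3.88 and 3.05 with H2O2, from 80 to 106 reads. The groups did not overlap, and treated replicate 2 was the highest. Its log2 difference was 1.84 (SE 0.22, adjusted p = 3.92e-10). MTF1, the zinc sensor, was at 5.52, 5.37 and 4.74 FPKM untreated and at 7.85, 8.57 and 7.36 with H2O2. All treated libraries were again the higher ones. The log2 difference of MTF1 was 0.60 (SE 0.07, adjusted p = 2.8e-11), with an adjusted p of 0.0122 when all 12 libraries shared an estimate of the spread.

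MT1G was too low in WT to be tested. It had 0, 0 and 0 reads untreated and 3, 2 and 4 with H2O2, or 0.24 ± 0.0685 FPKM (SD, n = 3). Against a floor of 3 reads over the untreated group, the treated level was 3.11-fold higher. This value leaves out the counting error of the treated reads, so the rise can be smaller.

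Of the 8 members, 4 were tested in this comparison and these 4 were higher at an adjusted p under 0.01. Among all 15913 genes tested, 30.9% were higher and 30.1% were lower, so a large share of the transcriptome moved. With a log2 difference above 1 and a mean above 1 FPKM in either group as well, the study's 3 thresholds together, 2 members were higher, MT1E and MT1X. Of all genes 7.3% met these thresholds in that direction. The other 4 members, MT1A, MT1F, MT1G and MT1M, had too few reads to be tested.

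The comparison of treated with untreated Atg7KO cells asks the same of the cells labelled Atg7KO. MT1E rose 3.08-fold, and MT1G rose from 0 reads. MT2A, MT1X and MTF1 did not pass the test with all 6 libraries. Each of the 3 passed when untreated Atg7KO replicate 1 was left out.

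MT2A was at 232, 127 and 135 FPKM in the untreated Atg7KO libraries and at 226, 216 and 217 with H2O2. Replicate 1 of the untreated cells was higher than all treated libraries, and the groups overlapped. The log2 difference was 0.42 (SE 0.23, adjusted p = 0.179). Without replicate 1 the means were 131 and 220 FPKM, the groups did not overlap, and the log2 difference was 0.74 (SE 0.04, adjusted p = 2.46e-56). The genes' spread was then estimated from a median of 335 prior degrees of freedom, against 3.04 with all libraries, so that this p-value rests on spread pooled over genes. With a correction for gene length and all libraries kept, the log2 difference of MT2A was 0.59 (adjusted p = 0.00868).

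MT1E was at 2.59, 1.01 and 1.90 FPKM untreated, from 19 to 45 reads, and at 6.33, 5.79 and 4.88 with H2O2, from 89 to 114 reads. The groups did not overlap, also with replicate 1 of the untreated cells kept in. The log2 difference was 1.62 (SE 0.31, adjusted p = 0.00572) and, without that library, 1.94 (SE 0.24, adjusted p = 5.48e-14). Leaving out untreated replicate 3 gave an adjusted p of 0.0207, and leaving out treated replicates 1, 2 and 3 in turn gave 0.0285, 0.0264 and 0.0187. The call of MT1E was thus lost in 4 of these 6 fits with a library left out, while its log2 difference stayed between 1.33 and 1.94.

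MT1X was at 2.05, 1.11 and 0.944 FPKM untreated, from 31 to 60 reads, and at 1.91, 2.44 and 2.57 with H2O2, from 58 to 79 reads. The groups overlapped, with untreated replicate 1 above treated replicate 1. The log2 difference was 0.76 (SE 0.31, adjusted p = 0.0877) and, without untreated replicate 1, 1.15 (SE 0.25, adjusted p = 1.69e-05).

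MT1G had 0, 0 and 0 reads in untreated Atg7KO and 20, 14 and 19 with H2O2, or 1.38 ± 0.22 FPKM (SD, n = 3). Every treated library held reads and no untreated library did. The treated level was 17.6-fold higher against a floor of 3 reads over the untreated group, without the counting error of the treated reads. MT1G passed the filter on low counts only through the treated group, where it is high. With no such filter its adjusted p was 5.44e-05, and with the filter it was 0.0016. In fits with the filter, leaving out treated replicate 1 or 3 raised the adjusted p to 0.0121 and 0.0127. Leaving out untreated Atg7KO replicate 1 instead gave an adjusted p of 7.73e-09 by edgeR.

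MTF1 was at 2.84, 5.27 and 5.16 FPKM untreated and at 7.05, 6.40 and 6.40 with H2O2. All treated libraries were higher, and untreated replicate 1 was far the lowest, the reverse of MT2A. The log2 difference was 0.57 (SE 0.23, adjusted p = 0.0852). Without replicate 1 it was smaller, 0.33, with a smaller error (SE 0.06, adjusted p = 1.14e-06).

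Of the 8 members, 5 passed the filter on low counts here. MT1G is left out of the count because its treated group let it in. Of the other 4, 1 was higher, MT1E, and 0 were lower by edgeR. Among 15475 genes tested, 13.6% were higher and 12.4% lower. MT1E also met the 3 thresholds, as did 6.09% of all genes in that direction, and MT1X met them as well when untreated Atg7KO replicate 1 was left out. Without untreated Atg7KO replicate 1, these 4 members were higher, and of 16002 genes tested 29.8% were higher and 28.6% lower.

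**Figure D3:**
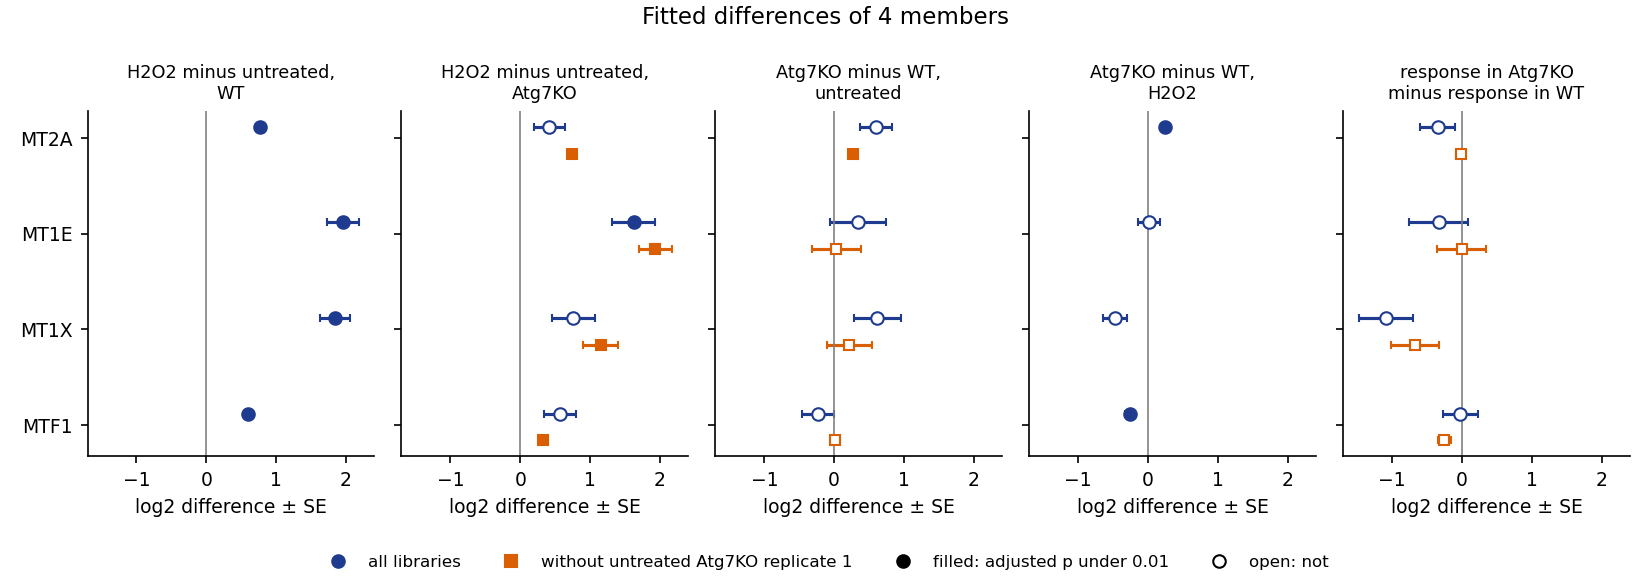
Points are log2 differences with their standard errors for 4 members in the 5 comparisons, with all libraries or without untreated Atg7KO replicate 1, and filled symbols passed at an adjusted p under 0.01. The H2O2 difference of MT2A in Atg7KO is 0.42 with all libraries and 0.74 without that replicate, and MT1G is left out because its untreated libraries are at 0.

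Untreated Atg7KO and WT cells were compared to see whether the genotypes differ before the oxidant. No member passed the test. MT2A was higher in each Atg7KO library (127 to 232 FPKM) than in each WT library (95.5 to 115 FPKM), with means of 165 ± 58.9 and 109 ± 11.3 (SD, n = 3). Its log2 difference was 0.60 (SE 0.23, adjusted p = 0.124). Without Atg7KO replicate 1 the log2 difference was 0.28 (SE 0.06, adjusted p = 0.000644), smaller but past the threshold. That p-value rests on spread pooled over genes, with a median of 289 prior degrees of freedom. In that fit 18.2% of 15848 genes tested were higher and 17.9% lower.

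The other members gave no call in untreated cells with or without that library. MT1E was at 1.43 ± 0.436 FPKM in WT and 1.84 ± 0.792 in Atg7KO, with overlapping groups and a log2 difference of 0.35 (adjusted p = 0.574). MT1X was at 0.883 ± 0.134 and 1.37 ± 0.598 FPKM, again overlapping (0.62, adjusted p = 0.25). MTF1 was at 5.21 ± 0.415 and 4.42 ± 1.37 FPKM with a log2 difference of -0.23 (adjusted p = 0.514). Without Atg7KO replicate 1 both MTF1 means were 5.21 FPKM and the log2 difference was 0.01 (adjusted p = 0.94). MT1G had 0 reads in all 6 libraries. Of the 8 members 4 were tested, and 0 were higher and 0 lower by edgeR and by DESeq2, while 1 member, MT2A, had an unadjusted p under 0.05 by edgeR. Among 15357 genes tested, 4.42% were higher and 3.28% lower in Atg7KO.

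In H2O2 the genotypes were compared in the same way, and here no library stood apart. MT2A was 1.18-fold higher in Atg7KO than in WT, and MT1G was higher as well. MTF1 was lower in Atg7KO, at 0.832 of its WT level. MT1E was at 5.62 ± 1.07 FPKM in WT and 5.66 ± 0.734 in Atg7KO, with a log2 difference of 0.01 (SE 0.16, adjusted p = 0.969).

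MT2A was at 177, 187 and 191 FPKM in treated WT and at 226, 216 and 217 in treated Atg7KO. The groups did not overlap. The difference was small, 0.24 on the log2 scale, and so was its error (SE 0.04, adjusted p = 1.39e-06). The spread behind this p-value was pooled over genes, with a median of 27 prior degrees of freedom. In a fit of all 12 libraries, which took in the spread of untreated Atg7KO, the adjusted p was 0.294.

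MT1G had 9 reads over the 3 treated WT libraries and 53 over the 3 treated Atg7KO libraries. Each Atg7KO library had more reads (14 to 20) than any WT library (2 to 4). The ratio of the levels was 5.69, with a 95% interval from 2.78 to 13.1 that covers counting error only. MT1G passed the filter on low counts only through treated Atg7KO, where it is high. With no such filter its log2 difference was 2.49 (SE 0.56, adjusted p = 4.7e-05).

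MTF1 was at 7.85, 8.57 and 7.36 FPKM in treated WT and at 7.05, 6.40 and 6.40 in treated Atg7KO. The Atg7KO libraries were the lower ones, without overlap. The log2 difference was -0.27 (SE 0.06, adjusted p = 0.000222), and it missed the threshold in the fit of all 12 libraries (adjusted p = 0.237) and with limma on log2 FPKM (adjusted p = 0.0155 with a pseudocount of 1, 0.0139 with 0.1). MT1X was lower in each treated Atg7KO library (1.91 to 2.57 FPKM) than in each treated WT library (2.66 to 3.88 FPKM). Its log2 difference of -0.47 (SE 0.18, adjusted p = 0.0198) did not pass, and without treated WT replicate 1 it was -0.59 (adjusted p = 0.00986).

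Of the 8 members 5 passed the filter with H2O2, MT1G again only through the group where it is high. Of the other 4, 1 was higher in Atg7KO, MT2A, and 1 was lower, MTF1. Among 15909 genes tested, 27.7% were higher and 27.9% lower, so the members' counts lay near the background and are no result about the family. Of all genes, 3.03% met the 3 thresholds in the higher direction.

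The levels of each gene can be put in order over the 4 groups. MT2A went from untreated WT (109 FPKM) through untreated Atg7KO (165) and treated WT (185) to treated Atg7KO (220), and untreated Atg7KO overlapped both groups above it through replicate 1. MT1E had untreated WT and untreated Atg7KO at the bottom and both treated groups at the top, each pair overlapping. MT1X went from untreated WT (0.883) through untreated Atg7KO (1.37) and treated Atg7KO (2.31) to treated WT (3.20), with the lower pair and the middle pair overlapping. MTF1 went from untreated Atg7KO (4.42) and untreated WT (5.21), which overlapped, to treated Atg7KO (6.62) and treated WT (7.93), which did not. MT1G was at 0 in both untreated groups, at 0.24 FPKM in treated WT and at 1.38 in treated Atg7KO.

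Whether the response to H2O2 differed between the genotypes was tested as an interaction over all 12 libraries. No member passed. The response of MT1X in Atg7KO minus that in WT was -1.08 on the log2 scale (SE 0.39, adjusted p = 0.0509). It was -0.68 without untreated Atg7KO replicate 1 (SE 0.35, adjusted p = 0.108). For MT2A the difference of responses was -0.35 (SE 0.25, adjusted p = 0.306), and without that library -0.02 (SE 0.08, adjusted p = 0.895). With a correction for gene length the value for MT2A was 0.00. MT1E had -0.33 (SE 0.42, adjusted p = 0.572), again with no call when that library was left out, and MTF1 -0.03 (SE 0.25, adjusted p = 0.952). Without the library that stood apart, MTF1 had -0.26 (SE 0.09, adjusted p = 0.0193). MT1G had 0 reads in both untreated groups, so its difference of responses could not be estimated from counts. It passed with limma on log2 FPKM at both pseudocounts, a scale on which the value depends on the pseudocount, after the same filter.

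Among the 8 members, 0 were higher and 0 lower in this test by edgeR and by DESeq2, and 1, MT1X, had an unadjusted p under 0.05 by edgeR. Among 16856 genes tested, 7.02% had a higher and 7.01% a lower response in Atg7KO. The shares were 17.8% and 16.3% of 17543 genes with untreated Atg7KO replicate 1 left out. The calls in WT and their absence in Atg7KO for MT2A, MT1X and MTF1 are therefore not shown to be a difference between the genotypes.

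Other genes known as targets of MTF1 were counted beside the members. This list and the gene lists below were also chosen with earlier results of these data known. Of all genes tested with H2O2, 30.9% were higher and 30.1% lower in WT, and 13.6% and 12.4% in Atg7KO, which is the background of the counts of this and the following lists. In WT, 8 of 11 tested targets rose with H2O2 and 0 fell, with a median log2 difference of 0.86 against -0.01 over all genes tested. These include SLC30A2, with 1 to 4 reads per untreated library, which passed the filter on low counts only through treated WT, where it is high. In Atg7KO 6 of 10 rose and 0 fell, with a median of 0.66 against -0.03. Without untreated Atg7KO replicate 1 it was 6 higher and 2 lower, where 29.8% and 28.6% of all genes were.

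SLC30A1, which carries zinc out of the cell and is induced by zinc through MTF1, has 1 core in its promoter window. The gene was at 6.07 ± 0.56 FPKM in untreated WT and 42.6 ± 3.55 with H2O2, and at 6.16 ± 0.391 and 19.6 ± 0.291 in Atg7KO (SD, n = 3 each). Its log2 difference with H2O2 was 2.81 in WT (SE 0.06, adjusted p = 6.7e-29) and 1.67 in Atg7KO (SE 0.09, adjusted p = 2.98e-05). Between the genotypes, the untreated log2 difference was 0.02 (adjusted p = 0.918), and the treated one was -1.13 (SE 0.05, adjusted p = 2.63e-18). The interaction of SLC30A1 was -1.14 (SE 0.12, adjusted p = 7.59e-05), and without untreated Atg7KO replicate 1 it was -1.09 (adjusted p = 8.34e-18).

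PGF, a growth factor of blood vessels, rose from 0.556 ± 0.121 to 6.27 ± 0.638 FPKM in WT and from 1.55 ± 0.474 to 8.15 ± 0.547 in Atg7KO. Its interaction was -1.09 (SE 0.27, adjusted p = 0.00964), or -0.81 (adjusted p = 3.98e-05) with untreated Atg7KO replicate 1 left out. NDRG1, a stress-response gene, rose from 0.72 ± 0.0954 to 4.97 ± 0.615 FPKM in WT and from 1.55 ± 0.158 to 13.5 ± 0.648 in Atg7KO, with no call for the interaction (0.34, adjusted p = 0.14) unless that library was left out (0.41, adjusted p = 0.00955). TXNRD1, the cytosolic thioredoxin reductase, rose from 130 ± 4.03 to 236 ± 11.6 FPKM and from 118 ± 10.1 to 189 ± 4.79. GCLC, a subunit of the enzyme that starts glutathione synthesis, rose by 0.30 and 0.49 on the log2 scale, and CSRP1 by 0.89 and 0.68. SELENOW and the zinc importer gene SLC39A10 did not pass in either genotype with all libraries. With untreated Atg7KO replicate 1 left out, SLC39A10 (-0.15, adjusted p = 0.00444) and SELENOH (-0.23, adjusted p = 0.00491) were lower with H2O2 in Atg7KO, and SELENOW did not pass. In the comparison of genotypes, 2 of 10 targets were higher untreated, PGF and NDRG1, or 4 without untreated Atg7KO replicate 1, where 4.42% and 18.2% of all genes were, and with H2O2 5 of 11 were higher and 4 lower, against 27.7% and 27.9% of all genes. The interaction was lower for 2 of 11 and higher for 0 by edgeR, against 7.01% and 7.02% of all genes. Leaving out that replicate, it was lower for 4 and higher for 1, against 16.3% and 17.8%.

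**Figure D4:**
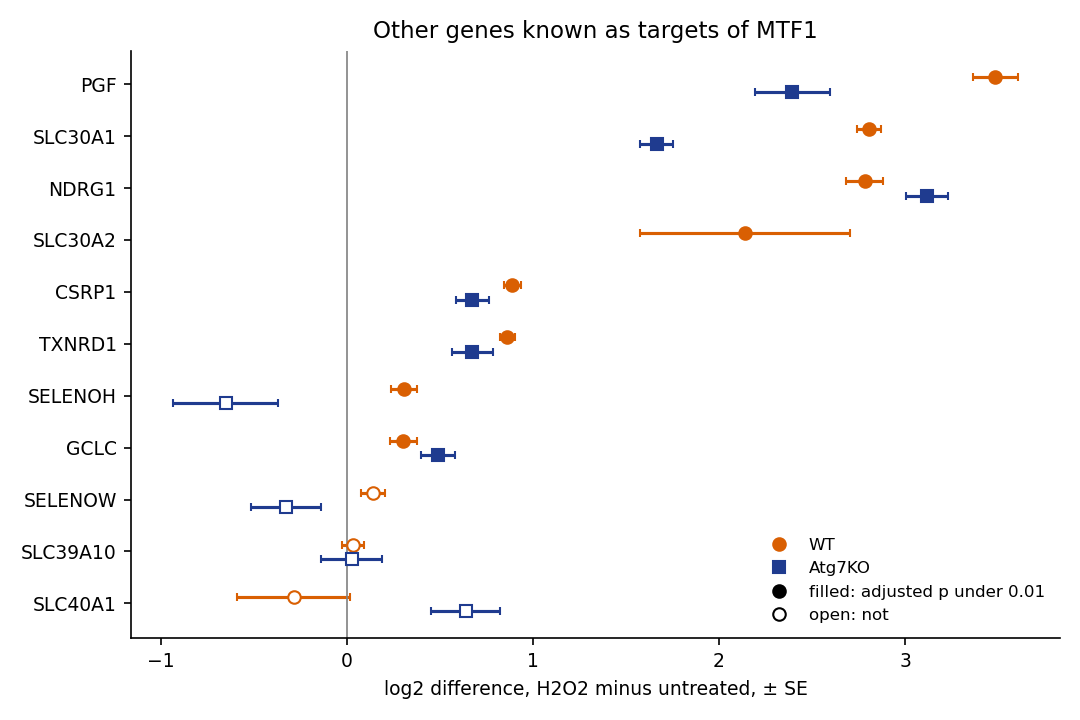
Points are log2 differences with standard errors, treated minus untreated, for 11 genes known as MTF1 targets in WT and in Atg7KO, filled where the adjusted p was under 0.01. PGF, SLC30A1 and NDRG1 lie at 3.48, 2.81 and 2.78 in WT and at 2.39, 1.67 and 3.12 in Atg7KO, and SLC30A2 was not tested in Atg7KO.

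Zinc transporters were counted by family, with SLC30A1, SLC30A2 and SLC39A10 of the list above among them. Of 8 tested SLC30 genes, which carry zinc out of the cytosol, 4 rose and 4 fell with H2O2 in WT, and of 7 in Atg7KO 2 rose and 1 fell. Of those that rose, SLC30A2 in WT and SLC30A3 in both genotypes passed the filter on low counts only through the treated group, where they are high. SLC30A6, a transporter of the Golgi, fell from 8.68 ± 0.401 to 5.03 ± 0.558 FPKM in WT and was at 8.08 ± 0.504 and 7.02 ± 0.257 in Atg7KO, with an interaction of 0.58 (SE 0.13, adjusted p = 0.00547), or 0.54 (adjusted p = 5.33e-06) with untreated Atg7KO replicate 1 left out. In untreated cells 0 of 6 SLC30 genes passed between genotypes by edgeR, and with H2O2 3 of 8 were higher in Atg7KO and 1 lower, SLC30A1, against 27.7% and 27.9% of all genes. For the interaction 2 of 8 were higher and 1 lower, SLC30A1, against 7.02% and 7.01%. Leaving out untreated Atg7KO replicate 1, 3 SLC30 genes rose and 2 fell with H2O2 in Atg7KO, 0 were higher and 1 was lower in untreated Atg7KO, and the interaction was higher for 3 and lower for 1, where the shares of all genes were 29.8% and 28.6%, 18.2% and 17.9%, and 17.8% and 16.3%. Of 11 tested SLC39 genes, which carry zinc into the cytosol, 1 rose and 4 fell in WT, and 1 rose and 2 fell in Atg7KO. SLC39A14 rose in WT from 37.3 ± 0.748 to 70.4 ± 2.97 FPKM and was at 84.5 ± 5.7 and 82.1 ± 2.07 in Atg7KO. It was the 1 importer that was higher in untreated Atg7KO (1.18, SE 0.10, adjusted p = 0.000515), and its interaction was -0.96 (adjusted p = 7.59e-05), or -1.01 (adjusted p = 3.34e-30) without untreated Atg7KO replicate 1. SLC39A13 fell from 12.7 ± 0.791 to 10.1 ± 0.164 FPKM in WT and from 17.1 ± 0.679 to 5.78 ± 0.311 in Atg7KO, with an interaction of -1.23 (adjusted p = 1.98e-05), or -1.20 (adjusted p = 3.38e-21) without it. With H2O2, 5 of 11 importers were higher in Atg7KO and 3 lower, against 27.7% and 27.9% of all genes. Without untreated Atg7KO replicate 1, 6 importers were higher in untreated Atg7KO and 1 was lower, where 18.2% and 17.9% of all genes were, and 1 rose and 5 fell with H2O2 in Atg7KO. The interaction was lower for 2 importers and higher for 0 by edgeR with all libraries, against 7.01% and 7.02% of all genes. It was lower for 3 and higher for 1 without that replicate, against 16.3% and 17.8%.

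Genes that handle copper, the other metal of metallothioneins, were counted in the same way. In WT 2 of 9 rose and 2 fell with H2O2, and in Atg7KO 0 of 9 passed by edgeR in either direction. Once untreated replicate 1 was left out, 1 was higher and 1 lower in Atg7KO, where 29.8% and 28.6% of all genes were. In WT SLC31A2, 1 of the genes that rose, passed the filter on low counts only through the treated group, where it is high. ATP7A, a copper pump of the Golgi, fell in WT from 3.17 ± 0.042 to 1.37 ± 0.148 FPKM and was at 2.65 ± 0.521 and 2.71 ± 0.0271 in Atg7KO. Its interaction was 1.24 (SE 0.18, adjusted p = 0.000542), or 1.09 (adjusted p = 9.49e-14) once that replicate was left out. SLC31A1, the copper importer, was at 21.9 ± 2.07 and 24.4 ± 1.73 FPKM in WT (0.15, adjusted p = 0.0189) and at 14.7 ± 1.34 and 20.0 ± 0.892 in Atg7KO (0.43, adjusted p = 0.0134), without overlap in either genotype and without a call. With that replicate left out, SLC31A1 was the copper gene called higher in Atg7KO (0.35, adjusted p = 8.88e-12), and the copper pump gene ATP7B was the lower one (-1.04, adjusted p = 4.45e-06). Between the genotypes 0 of 9 passed untreated by edgeR, where 4.42% of all genes were higher and 3.28% lower. Without that replicate 0 were higher and 3 lower untreated, where 18.2% and 17.9% of all genes were. With H2O2 1 was higher and 3 lower, against 27.7% and 27.9% of all genes. The counts between the treated genotypes are no result about the list.

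Other factors known to act on metallothionein transcription were counted as a list. In WT 5 of 9 rose and 2 fell, with a median of 0.18. In Atg7KO 2 of 9 rose and 0 fell, with a median of 0.37, or 0.12 without untreated Atg7KO replicate 1. HIF1A, the oxygen-regulated factor, rose from 115 ± 5.7 to 176 ± 2.92 FPKM in WT and from 114 ± 8.14 to 201 ± 2.39 in Atg7KO. STAT3, which acts downstream of cytokines, rose from 29.9 ± 0.872 to 46.2 ± 3.42 FPKM and from 16.8 ± 3.25 to 37.6 ± 0.905. NFE2L2, the factor of the antioxidant response element, rose from 12.6 ± 0.703 to 14.9 ± 0.451 FPKM in WT and was at 13.7 ± 1.59 and 11.2 ± 0.35 in Atg7KO, with an interaction of -0.53 (SE 0.12, adjusted p = 0.00667), or -0.43 (adjusted p = 2.01e-06) without untreated Atg7KO replicate 1. Untreated genotypes differed for 0 of 9 by edgeR, and with H2O2 6 of 9 were higher and 2 lower in Atg7KO, against 27.7% and 27.9% of all genes. Without untreated Atg7KO replicate 1, 4 rose and 1 fell with H2O2 in Atg7KO, 2 were higher and 1 lower in untreated Atg7KO, and the interaction was higher for 4 and lower for 1. The shares of all genes in these fits were 29.8% and 28.6%, 18.2% and 17.9%, and 17.8% and 16.3%. With all libraries the interaction was lower for 1, NFE2L2, against 7.01% of all genes.

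Heat shock genes, another set that oxidants and metals can induce, rose in WT for 9 of 11 with a median of 0.95, and in Atg7KO for 6 of 11 with a median of 0.56. With H2O2, 10 of 11 were lower in Atg7KO than in WT and 1 was higher, where 27.9% and 27.7% of all genes were. The interaction was lower for 7 and higher for 1, against 7.01% and 7.02% of all genes. The counts of this interaction and those of H2O2 against untreated in each genotype include HSPA6. There it passed the filter on low counts only through the treated groups, where it is high. In untreated cells 1 of 10 was lower in Atg7KO and 0 were higher by edgeR, where 3.28% and 4.42% of all genes were. Once untreated Atg7KO replicate 1 was left out, 9 rose and 2 fell in Atg7KO, 5 were lower and 1 was higher in untreated Atg7KO, and the interaction was lower for 6 and higher for 1. The shares of all genes in these fits were 29.8% higher and 28.6% lower, 17.9% lower and 18.2% higher, and 16.3% lower and 17.8% higher. HSPA1A, an inducible HSP70 gene, rose from 2.31 ± 0.288 to 35.7 ± 7.77 FPKM in WT and from 1.94 ± 0.169 to 7.50 ± 1.32 in Atg7KO. DNAJB1, its co-chaperone, rose from 61.8 ± 1.93 to 198 ± 21.8 FPKM in WT and was at 44.5 ± 1.33 and 53.6 ± 0.302 in Atg7KO. Of 7 tested genes known to be induced by glucocorticoids, which also act on MT2A, 4 rose and 2 fell in WT, and 3 rose and 2 fell in Atg7KO, with or without untreated Atg7KO replicate 1. DUSP1, a phosphatase of MAP kinases, rose from 27.6 ± 1.81 to 263 ± 22 FPKM in WT and from 25.6 ± 2.43 to 127 ± 1.07 in Atg7KO. With H2O2 1 of 7 was higher in Atg7KO and 5 lower, against 27.7% and 27.9% of all genes. Untreated 1 was higher and 1 lower, against 4.42% and 3.28%, or 1 and 3 without that replicate, against 18.2% and 17.9%. The interaction was higher for 1 and lower for 3, against 7.02% and 7.01%, or for 1 and 4 without that replicate, against 17.8% and 16.3%.

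Genes around the cluster were listed as a description. Within 500 kb of the cluster lie 38 other genes, of which 13 were tested in WT. Of these 3 rose and 6 fell, with a median log2 difference of -0.18 against -0.01 over all genes. In Atg7KO 2 of 12 rose and 4 fell, with a median of -0.25. The shares of all genes were 30.9% higher and 30.1% lower in WT and 13.6% and 12.4% in Atg7KO. Whether the counts of neighbours differ from these shares was not tested. CETP, 1 of those that rose in WT, passed the filter on low counts only through treated WT, where it is high. Distances are between the lower coordinates of the genes. OGFOD1, an oxygenase gene that lies -156.7 kb from MT2A, rose by 0.95 in WT (adjusted p = 6.55e-15) and by 0.89 in Atg7KO (adjusted p = 0.000601). HERPUD1, a gene of the endoplasmic reticulum stress response at 323.8 kb, rose by 0.89 in WT and was at -0.09 in Atg7KO (adjusted p = 0.553), with an interaction of -0.98 (adjusted p = 0.000333), or -0.87 (adjusted p = 1.06e-12) without untreated Atg7KO replicate 1. GNAO1, a G protein gene at -416.9 kb, was lower with H2O2 by -1.45 and -1.89. Between the genotypes, 0 of 12 neighbours passed untreated by edgeR, and with H2O2 1 of 13 was higher and 5 were lower, CETP among these, against 27.7% and 27.9% of all genes. The interaction was lower for 1 of 13, HERPUD1, against 7.01%. With untreated Atg7KO replicate 1 left out, 3 neighbours rose and 6 fell with H2O2 in Atg7KO, 3 were higher and 3 lower in untreated Atg7KO, and the interaction was higher for 3 and lower for 2. Of all genes, 29.8% and 28.6%, 18.2% and 17.9%, and 17.8% and 16.3% were higher and lower in these fits. The nearest tested neighbours, BBS2 at -141.4 kb and NUP93 at 121.9 kb, had log2 differences of -0.86 (adjusted p = 5.73e-12) and 0.03 (adjusted p = 0.56) in WT.

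**Figure D5:**
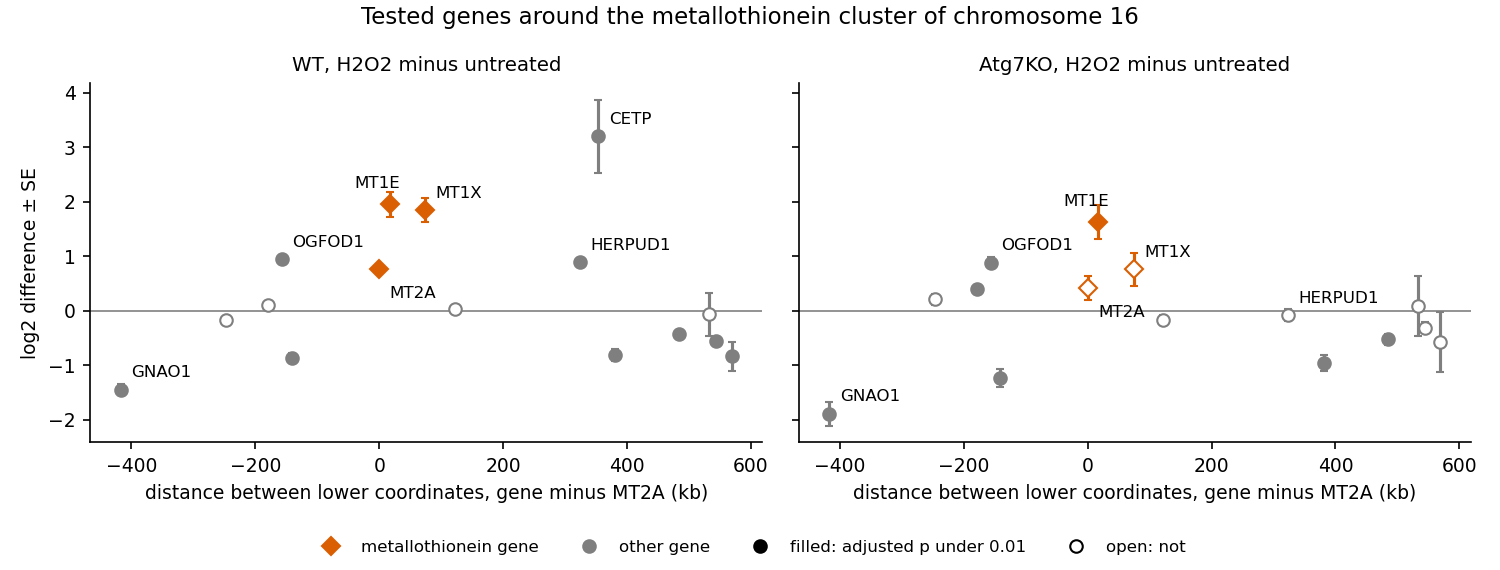
Points are log2 differences with standard errors, treated minus untreated, of tested genes against the distance of their lower coordinate from that of MT2A (kb), in WT and in Atg7KO, filled where the adjusted p was under 0.01. MT2A, MT1E and MT1X lie at 0.76, 1.96 and 1.84 in WT, and of the 13 other tested genes 3 rose and 6 fell there. MT1G is left out because its untreated libraries are at 0.

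Over the 12 libraries, the genes whose log2 levels were most like those of a member were listed from 14076 genes as a description. For MT2A they were BCAP31 (r = 0.976), UBE2D3 (0.975), CCNG1, EED and TXNL1 (0.974 each). BCAP31 was at 62.6, 88.1, 82.5 and 92.1 FPKM in untreated WT, treated WT, untreated Atg7KO and treated Atg7KO, which is the same order of groups as for MT2A. For MT1E they were ARHGAP22 (0.983), TRMT6 (0.976), PDLIM1 (0.971), SRA1 and UGDH (0.968 each). ARHGAP22 was at 1.45, 2.71, 1.69 and 2.99 FPKM in the same groups, high in both treated groups as MT1E was. For MTF1 they were RAB11FIP5 (0.986), ZBTB21 (0.979), SHANK3 (0.978), CRKL (0.977) and ELF4 (0.974). These values rest on 4 groups and on a library that stood apart, and all 12 points share the treatment and genotype.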

How the data were processed

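RNA-seq of 12 HLE-B3 libraries was analysed. The deposited counts are whole reads per gene, and the authors' FPKM values scale those counts to library size and gene length. The submitters' processing notes name HISAT2 2.0.5, featureCounts 1.5.0-p3 and GRCh38.

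Members and lists were chosen with earlier results of these data known. Counts were tested with edgeR 4.0.16 in R 4.3.3 (filterByExpr, minimum count 10; TMM; robust quasi-likelihood fit; Benjamini-Hochberg adjustment over all genes tested). Each pair of groups used its own 6 libraries, and the interaction used all 12. A gene passed at an adjusted p under 0.01. A log2 difference beyond 1 and a mean above 1 FPKM were counted separately. The rule for named genes was all members, ATG7, listed genes that passed, genes within 500 kb of the cluster and the 5 genes most like MT2A, MT1E and MTF1. The text names part of these, and some listed genes that did not pass, chosen after their values were seen. The edgeR fits for H2O2 in WT and for the interaction were also run on simulated data.

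Alternatives were DESeq2 1.42.0, RLE and upper quartile scaling, no filter, a replicate block, all 12 libraries in a fit, a gene length correction, limma 3.58.1 on log2(FPKM + 1) and log2(FPKM + 0.1), summed family reads and leaving out each library. List counts without untreated Atg7KO replicate 1 were added after seeing the data. Shared stretches came from GENCODE release 29 transcripts and promoters from RefSeq (GRCh38.p14).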

Additional observations from a re-analysis of the deposited data

Results flagged for a closer look

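For 20 genes of the lists other than cell type markers, the log2 response to H2O2 in Atg7KO differed from that in WT by edgeR's test of the interaction over all 12 libraries, at an adjusted p under 0.01. Without untreated Atg7KO replicate 1 there were 30 such genes, and 19 of the 20 were among them. Of all genes tested, 7.02% had a higher and 7.01% a lower response in Atg7KO with all libraries. Without that replicate these shares rose to 17.8% and 16.3%. By this test none of the 8 members, the 7 metallothionein genes and MTF1, passed in either fit, and MT1G could not be estimated. Values are the response in Atg7KO minus that in WT. Among zinc and copper genes they were -1.14 for SLC30A1, 0.91 for SLC30A4, 0.58 for SLC30A6, -1.23 for SLC39A13, -0.96 for SLC39A14 and 1.24 for ATP7A. PGF, an MTF1 target, had -1.09, and NFE2L2, the antioxidant factor, had -0.53.

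Among heat shock genes the differences of responses were -1.99 for HSPA1A, -1.25 for HSPA1B, -1.41 for DNAJB1, -1.40 for HSPB1, -1.72 for HSPE1, -0.48 for BAG3 and 0.87 for HSPA8. HSPA6 had -7.78, but it passed the filter on low counts only through the treated groups, where it is high, with 0 to 2 reads per untreated WT library, so that its value is no measure of size, and without untreated Atg7KO replicate 1 its adjusted p was 0.0122. Among genes known to be induced by glucocorticoids they were -0.94 for DUSP1, -1.24 for TSC22D3, -0.97 for CEBPD and 0.88 for FKBP5.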

How the results depend on the processing

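Of the members' tests, 188 with another setting and 135 with a library left out kept their direction and their side of the threshold. Of the rest, 5 and 10 changed direction, 1 and 5 passed where the reported test did not, and 5 and 6 no longer passed. In each case the cause was not tested. The counts of members below include MT1G, which passed the filter on low counts only through treated Atg7KO, where it is high.

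Members higher with H2O2 in Atg7KO numbered 2 and ran from 0 to 5 with a library left out. Members higher in untreated Atg7KO numbered 0 and ran from 0 to 1. In treated Atg7KO, 2 members were higher and 1 lower, against 1 and 0 in the fit of all 12 libraries. None was lower (0) with limma at either pseudocount, and 1 to 2 were lower with a library left out. For the interaction, limma called 1 member higher, MT1G, at each pseudocount, against 0 by edgeR.

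Directions turned for these values near 0. MTF1 in untreated cells had -0.374 to 0.008 with a library left out. MT1E between treated genotypes had -0.033 with upper quartile scaling and -0.081 to 0.165 with a library left out. The interaction of MTF1 was 0.002 without a filter on low counts, 0 and 0.024 with limma at pseudocounts of 1 and 0.1, and -0.255 to 0.123 with a library left out. That of MT2A was 0.004 with the gene length correction.

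The deviations of same-numbered libraries correlated between -0.059 and 0.116, so no pairing by replicate number was seen. With 3 libraries per group these correlations cannot exclude a shared culture or batch. With the replicate number as a block, 4 members were higher in WT and 2 in Atg7KO with H2O2, 0 untreated, and 2 higher and 1 lower between treated genotypes, as without it. The block called 313 genes higher and 186 lower in untreated Atg7KO, against 679 and 503.

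Of all genes, 2107 rose and 1918 fell with H2O2 in Atg7KO, against 3241 and 3230 in the fit of all 12 libraries, and 1045 to 4768 and 722 to 4573 with a library left out. In untreated Atg7KO, DESeq2 called 1349 higher and 1162 lower, the fit of all 12 libraries 1685 and 1485, the length correction 807 lower, and fits with a library left out 180 to 2891 and 107 to 2843. Between treated genotypes 4414 and 4433 became 2330 and 2549 in the fit of all 12 libraries. The interaction called 1184 higher and 1182 lower, against 1791 and 1912 by DESeq2, 2000 and 2054 without a filter, and 622 to 3122 and 710 to 2852 with a library left out. Depth limits MT1A, MT1F, MT1G and MT1M, which had at most 20 reads in any library.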
